A study of Mus musculus with 12 samples.

Results

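Imprinted growth regulators are genes that are read mainly from the copy inherited from one parent and that set the pace of growth. Of 10 such genes named for the comparison (H19, Igf2, Igf2r, Meg3, Dlk1, Peg3, Cdkn1c, Grb10, Plagl1 and Mest), 8 were found by symbol among the 35509 genes of the deposited count table, and the long non-coding RNAs H19 and Meg3 were not analysed here. The RNA came from cell clones of the distal oviduct, or Fallopian tube, of 6 mice, each 4 weeks old, wild type, untreated and of mixed background, all carrying the MADM RG;GR alleles. MADM (mosaic analysis with double markers) colours single cells and their descendants through recombination between homologous chromosomes, so a clone and its size can be seen. Every mouse gave 1 library of large clones and 1 of small clones, each from 200 pooled cells, which makes 6 libraries per clone size and 12 in all. Both groups share the genotype and the mice, and the comparison asks whether these genes differ with clone size. The size that separates large from small clones, and the chromosome that carries the MADM alleles, are not given in the sources used here.

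As background, the paternally expressed members of this set mostly promote growth and the maternally expressed ones mostly restrain it. IGF2 is a growth factor that signals through the IGF1 receptor, while the IGF2 receptor carries it to the lysosome for destruction. GRB10 damps signalling from the insulin and IGF1 receptors, and CDKN1C (p57) blocks the cyclin-dependent kinases that drive cells into S phase. DLK1 is a membrane protein related to Notch ligands, PLAGL1 and PEG3 are zinc-finger proteins that act in the nucleus, and MEST belongs to the alpha/beta hydrolase family of enzymes. Many of these genes are high in the embryo and are switched down in most tissues as growth slows after birth. MADM recombination can leave a labelled cell with both copies of the marked chromosome from the same parent, but read counts per gene do not tell the parental copies apart.

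Each library held between 3057979 and 4227129 expected counts. Markers of the labelled tissue were present. All 7 epithelial, all 7 secretory-cell and all 9 ciliated-cell markers had counts, and each library held at least 5, 4 and 8 of them. Markers of other cell types were also present, among them 9 of 9 fibroblast, 7 of 7 endothelial, 7 of 7 immune, 6 of 6 smooth muscle, 5 of 5 red blood cell and 3 of 4 mesothelial markers (Upk1b was at 0). Chemoreceptor genes (receptors for odours, pheromones, trace amines and tastes) held 7.86% to 11.0% of counts in 5 libraries, the large clones of mice 1, 2 and 6 and the small clones of mice 3 and 6. They held 0.842% to 4.17% in the other 7. Values with these 5 libraries set apart are given below for each of the 8 imprinted growth regulators. For the other genes named below, fold changes were not set apart by this share. In pooled cells, fewer cells of a type and less RNA per cell cannot be told apart.

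The 8 genes had few or no reads in many libraries, and their reads came from different libraries for different genes. Of 96 values (8 genes in 12 libraries), 34 (35.4%) were 0, and every one of the 8 was at 0 in at least 3 libraries. Each gene was at 0 in at least 1 library of either clone size, so the ranges of the groups overlapped for all 8. Of all 25369 genes with a count, 69.3% were at 0 in at least 1 library. A single library held counts for 12090 to 18889 of these 25369 genes, so values of 0 were common over all genes as well. The share of 0 values over all genes was not computed, so the 35.4% is not shown to be particular to the 8. If reads are independent, a count of 0 allows up to 3 counts. Depending on the library, that is 0.585 to 1.33 CPM (CPM puts the counts of each library on the same depth), so a gene at or below that level may be missed. Amplified reads are not independent molecules, so a gene above that level may be missed too. The large clones of mouse 6 had counts for all 8 genes, and the large clones of mouse 4 had counts for 1, Peg3. The large clones of mouse 4 also had the fewest genes detected of the 12 libraries, 12090, against 17756 in the large clones of mouse 6. Summed over the 8 genes, the level ran from 33.9 to 138.9 CPM in large clones and from 4.46 to 80.7 CPM in small clones, so the groups overlapped. The gene with the most counts differed from library to library. In large clones it was Peg3 for mice 1, 4 and 6, Mest for mouse 2, Cdkn1c for mouse 3 and Plagl1 for mouse 5. In small clones it was Igf2r for mice 1, 2, 5 and 6, Dlk1 for mouse 3 and Peg3 for mouse 4.

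Per kilobase of the longest coding transcript, the mean level over 12 libraries was highest for Mest, at 3.34 ± 9.28 CPM per kilobase (SD, n = 12), followed by Cdkn1c at 2.47 ± 7.36, Peg3 at 1.14 ± 1.83 and Igf2r at 1.03 ± 1.73. Dlk1 (0.926 ± 2.31), Plagl1 (0.894 ± 1.32), Grb10 (0.423 ± 0.722) and Igf2 (0.0963 ± 0.147) were lower on the same scale. The SD exceeded the mean for each gene, so no neighbours in this order differed beyond their spread. By the median library the order changed, with Igf2r first at 0.557 CPM per kilobase, Plagl1 next at 0.318, Cdkn1c at 0.25 and Mest at 0.184. Scaling by length assumes that reads cover a transcript evenly, and the coverage was not analysed here. Over all 12 libraries, Igf1r, which encodes the IGF1 receptor, stood at 9.96 ± 7.71 CPM per kilobase and was detected in every library.

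**Figure D1:**
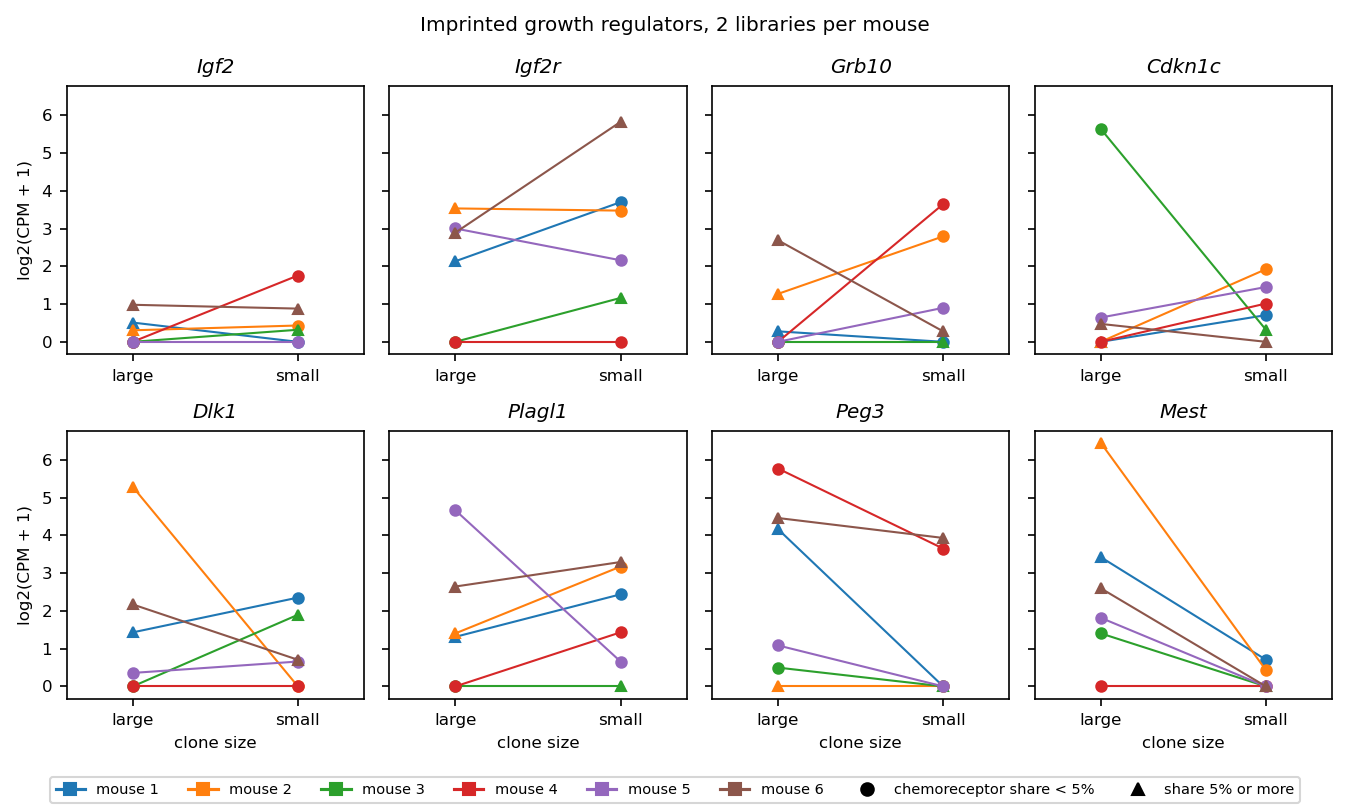
Level of each of the 8 genes in the large and small clones of each mouse, as log2(CPM + 1) on the vertical axis. Points are libraries, lines join the 2 libraries of a mouse, and triangles mark the 5 libraries with 5% or more of counts on chemoreceptor genes. For Mest and Peg3 the small-clone point is at or below the large-clone point in all 6 mice, while the lines of the other genes cross.

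Between large and small clones, 0 of the 8 genes passed an adjusted p of 0.05 in edgeR's quasi-likelihood test. The filter on low counts (about 10 counts in at least 6 libraries) kept 1 of the 8, Igf2r, against 42.8% of the genes with a count. In that filtered fit 0% of all genes tested (0 of 10848) were called and 275 genes (2.54%) had an unadjusted p under 0.05. The other 7 were taken from the same fit with no filter. There, 0% of 25369 genes passed after adjustment, 11.4% had an unadjusted p under 0.05, and 1 of the 8 genes, Mest, was among the latter, with higher values in large clones as for 6.2% of all genes. In that fit 5 of the 8 were higher in large clones, beside 13435 of all 25369 genes. The median log2 fold change of the 8 was 1.15, beside 0.09 over all genes. The biological coefficient of variation of the 8 genes lay between 157.6% and 201.9%, within the range of 87.1% to 313.2% that held the middle 90% of genes.

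Mest (ENSMUSG00000051855, chromosome 6, 30723546 to 30748464 in the coordinates of the table), the paternally expressed hydrolase gene, had the largest difference of the 8. In large clones the expected counts of mice 1 to 6 were 45.75, 369, 4, 0, 9.39 and 26, and in small clones they were 2.13, 1, 0, 0, 0 and 0. Large clones were higher in 5 of 6 mice and both libraries of mouse 4 were at 0, so the groups overlapped at the low end. Such a pattern, higher in large clones in at least 5 mice and lower in none, was shown by 0.982% of all genes with a count, by CPM. The reverse pattern was shown by 0.926% of genes and by 0 of the 8. The mean was 17.6 ± 34.1 CPM (large) against 0.164 ± 0.269 CPM (small), where ± is the SD over n = 6 libraries here and for each level in CPM below. This was a log2 fold change of 6.61 (SE 1.74), with an adjusted p of 0.419 in edgeR (unadjusted p of 0.00105), and 0.343% of all genes in the fit had one as large or larger. Small clones held 3 counts in all against 454 in large clones. The ratio of these sums, corrected for depth, was 143.7, with a 95% exact interval of 48.9 to 699.6 that covers counting error and not the spread between mice.

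The tests of Mest did not all fall on the same side of the threshold. DESeq2 without a filter gave an adjusted p of 0.0352, or 0.0214 with mouse as a block, where it called 0.107% and 0.488% of the genes it tested. With mouse as a block in edgeR the log2 fold change was 5.87 and the adjusted p 0.777, with an unadjusted p of 0.000727 where 2.85% of genes were under 0.05. In the two-sided exact permutation test of mean log2(CPM + 1) over 924 assignments of 6 against 6 libraries, the difference was 2.43 with a p of 0.0152, a level under 0.05 that 1.71% of genes reached, and an adjusted p of 1 over all genes. Mest alone of the 8 genes was under 0.05 there. Swaps within mice gave an exact p of 0.0625, and put 1.23% of genes and 0 of the 8 under 0.05. The p of these swaps cannot go below 0.0312, or below 0.0625 where both libraries of a mouse are at 0. Every one of the 8 except Cdkn1c had such a mouse, so the swaps could not have put Mest under 0.05. Across all these settings the adjusted p ran from 0.0214 to 1.

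Single libraries weighed on Mest. The large clones of mouse 2 held 80.7% of its counts, and without mouse 2 the log2 fold change was 4.62. Without mouse 1 it was 7.65. The 3 libraries with the most counts, the large clones of mice 2, 1 and 6, are also the 3 large-clone libraries with the higher chemoreceptor share. The 2 small-clone libraries with a higher share, of mice 3 and 6, had 0 counts. Within these 5 libraries Mest was at least 91.7-fold higher in large clones, taken against a limit of 3 counts over both small-clone libraries, or at least 21.4-fold without the large clones of mouse 2. Both bounds take pooled reads as independent and leave out the spread between mice. Within the 7 other libraries the Mest counts were 0 to 9.39 in large and 0 to 2.13 in small clones, with a log2 fold change of 2.27 and an adjusted p of 0.738 in edgeR. With the chemoreceptor share as a covariate it was 5.18 (adjusted p of 0.597 in edgeR). Markers of the epithelium were low in the 3 libraries with the most Mest. The summed level of the 7 epithelial markers was 913.3, 1287 and 264.4 CPM in the large clones of mice 1, 2 and 6, against 3981 to 8690 CPM in the other large clones. For the 9 ciliated-cell markers it was 253.5, 473.5 and 113.5 CPM against 1945 to 3682 CPM. The small clones of mice 3 and 6, with 0 Mest counts, were also low, at 1314 and 749 CPM for the epithelial markers. The 9 fibroblast markers summed to 129.8, 35.1 and 112.1 CPM in the 3 libraries and to 166.6 to 838.7 CPM in the other large clones. Immune markers were not low there, at 251.8, 80.5 and 106.8 CPM against 0.444 to 88.8 CPM in the other large clones. Endothelial markers stood at 390.1, 183 and 502.3 CPM against 137.3 to 430.4 CPM. The small clones of mice 3 and 6 had 17.1 and 84.1 CPM of immune and 290.7 and 256.2 CPM of endothelial markers. The part of cell makeup in the Mest values was not tested.

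The gene of Mest overlaps that of Copg2 in the table, and the Nextera XT kit does not mark strand, so some reads could belong to either. Copg2, which encodes a coat protein of Golgi vesicles, had 15.1 to 28.0 counts in large and 6.10 to 62.2 counts in small clones, a log2 fold change of -0.50 (SE 0.69). The share of reads that either gene took from the other was not tested. Klf14, a maternally expressed transcription factor gene of the same cluster, had a median of 105 counts in large and 2.50 counts in small clones. Its CPM was higher in the large clones of 4 mice and lower in 1, and its largest value, 994 counts, lay in the large clones of mouse 4, where Mest was at 0. Copg2 and Klf14 were chosen here for their position, after their values were seen.

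**Figure D2:**
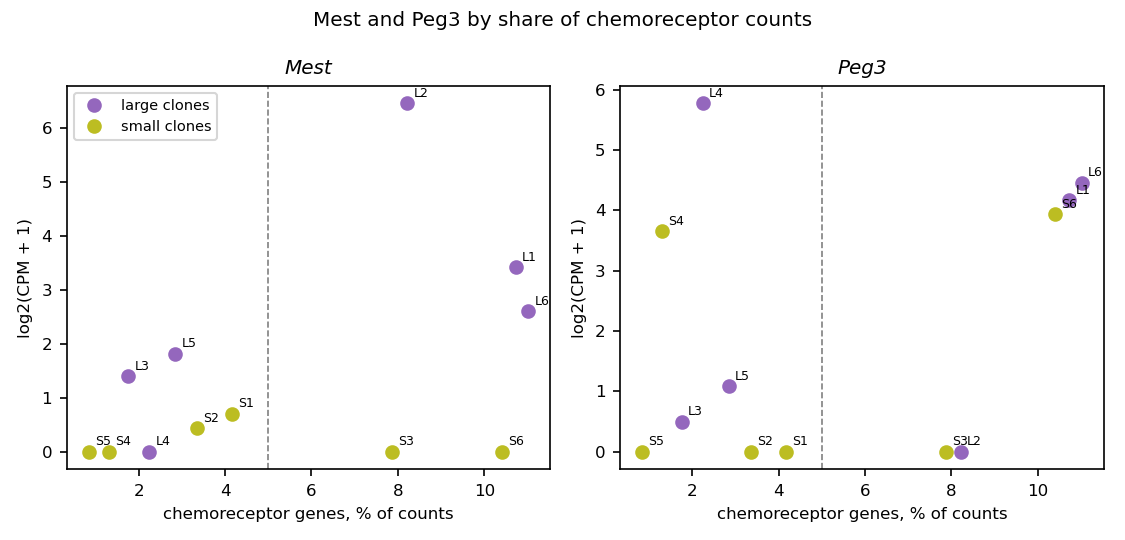
Level of Mest (left) and Peg3 (right) in each library, as log2(CPM + 1), against the percentage of counts on chemoreceptor genes, with the dashed line at 5%. Points are libraries, coloured by clone size and labelled with L or S and the mouse. The 3 highest Mest values are large clones to the right of the line, while the highest Peg3 value, 53.8 CPM, is a large-clone library to its left.

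Peg3 (ENSMUSG00000002265, chromosome 7, 6706891 to 6733430), a paternally expressed zinc-finger gene, showed the same order of clone sizes within mice. In large clones the counts of mice 1 to 6 were 80, 0, 1, 121, 4 and 108, and in small clones they were 0, 0, 0, 34, 0 and 68. Large clones were higher in 5 of 6 mice, and both libraries of mouse 2 were at 0. In mouse 3 the higher value was 1 count (0.412 CPM), below the 0.744 CPM that 0 counts allow in its small clones. The mean was 15.6 ± 20.8 CPM (large) against 4.31 ± 6.73 CPM (small), and both groups held values at or near 0 and values above 10 CPM. The log2 fold change was 1.81 (SE 1.63) with an adjusted p of 0.696 in edgeR, and 3.08 with mouse as a block (adjusted p of 1 in edgeR, unadjusted p of 0.0547). The exact p was 0.253 for 6 against 6 libraries and 0.0625 for swaps within mice. With both libraries of mouse 2 at 0, the swaps could not give a lower p. In edgeR the log2 fold change was 2.68 in the 7 libraries below 5% chemoreceptor counts and 0.82 in the 5 others, and the difference between these sets was not tested. Without mouse 6 it was 2.72.

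The library with the most Peg3, the large clones of mouse 4, also had the highest summed level of fibroblast markers (838.7 CPM) and of red blood cell markers (5928 CPM) of the 12 libraries. The part of these in the Peg3 value was not tested. Usp29 and Zim1 lie in the same imprinted cluster as Peg3 and were detected in all 12 libraries. Usp29, which encodes a ubiquitin-specific protease, had a median of 378.8 counts in large and 139 counts in small clones and a log2 fold change of 0.83 (SE 0.80). Zim1, another zinc-finger gene, had medians of 15.1 and 15.5 counts and a log2 fold change of -0.86 (SE 0.96). Their adjusted p was 0.9998 each in edgeR, and they too were picked for their position after their values were seen.

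The stretches before the start sites of these 2 genes are shown because Mest and Peg3 were the 2 members higher in large clones in 5 mice and lower in none. They are RefSeq sequences of GRCm38.p6, the 250 bases before the start, for 1 of the 3 listed starts of Mest chr6:30737800-30738049 on the plus strand and for Peg3 chr7:6730420-6730669 on the minus strand. Capitals mark the letters GGGGCCCC, a motif of PLAGL1, searched on both strands in the 250 bases before and 50 bases after each start.
Mest: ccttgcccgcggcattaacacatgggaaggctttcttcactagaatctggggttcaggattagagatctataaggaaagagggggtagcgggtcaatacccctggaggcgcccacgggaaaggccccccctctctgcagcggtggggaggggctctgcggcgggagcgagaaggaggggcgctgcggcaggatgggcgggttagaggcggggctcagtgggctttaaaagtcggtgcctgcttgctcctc
Peg3: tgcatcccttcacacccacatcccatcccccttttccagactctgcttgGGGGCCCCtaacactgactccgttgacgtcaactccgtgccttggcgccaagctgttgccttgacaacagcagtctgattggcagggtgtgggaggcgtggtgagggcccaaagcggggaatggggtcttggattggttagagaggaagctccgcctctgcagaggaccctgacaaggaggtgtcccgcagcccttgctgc

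Of 32851 promoters in the RefSeq table, 1.08% held GGGGCCCC, and of the 15 promoters of 8 members with an entry (Meg3 included) 1 did, that of Peg3, with its first base 201 bases before the start. The letters GCCATNTT, a motif of YY1, stood in 6.05% of all promoters and in 0 of the 15. A match is a description of the letters and not a binding site. The promoters of the members held a median of 13 CG dinucleotides against 7 over all promoters. They ranged from 1 at a Meg3 start to 45 at a Grb10 start, and the Peg3 promoter held 13. The 3 Mest promoters held 8, 17 and 17, and the one shown holds 17.

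Among the genes of the IGF axis, the ligand was barely present. Igf2 (ENSMUSG00000048583, chromosome 7, 142204503 to 142220553) had 21 expected counts over all 12 libraries and 0 counts in 5 of them. Its highest value was 5.04 counts in large clones (mouse 6) and 7 counts in small clones (mouse 4), and the medians were 0.5 and 1.05 counts. The mean of 0.272 ± 0.385 CPM (large) against 0.637 ± 0.909 CPM (small) lay below or within the range of the limit that a count of 0 allows. The log2 fold change of -0.97 (SE 1.45) had an adjusted p of 0.872 in edgeR, and without mouse 4 it was 0.18. In the 7 libraries below 5% chemoreceptor counts Igf2 had 0 counts in large and 8 in small clones, 7 of these in mouse 4, and in the 5 others it had 7.58 and 5.42 counts with a log2 fold change of -0.02. The table also holds a gene named Gm49394 that overlaps Igf2, and 4 of the 12 Igf2 values were not whole, so reads may be divided between the genes. Ins2, which neighbours Igf2 and encodes an insulin, was at 0 in all 12 libraries.

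Igf2r (ENSMUSG00000023830, chromosome 17, 12901293 to 12988551), the maternally expressed receptor that clears IGF2, was detected in 9 of 12 libraries. Large clones ran from 0 through a median of 20.5 to 45 counts, and small clones from 0 through a median of 20.5 to 266 counts. The medians were equal, and the single high value came from the small clones of mouse 6, which held 56.7% of all Igf2r counts. The level was 4.58 ± 4.22 CPM (large) against 13.8 ± 21.2 CPM (small). This gave a log2 fold change of -1.58 (SE 1.32) with an adjusted p of 0.9998 in edgeR, and without mouse 6 it was -0.28. Lower values in large clones were seen in 3 mice, higher ones in 2, and both libraries of mouse 4 were at 0. The log2 fold change of Igf2r was -1.46 in the 7 libraries below 5% chemoreceptor counts and -2.05 in the 5 others. Slc22a2 and Slc22a3, organic cation transporter genes of the same cluster, had medians of 1.5 and 4.5 counts in large and 3.5 and 3 counts in small clones.

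Grb10 (ENSMUSG00000020176, chromosome 11, 11880508 to 11988683), the receptor-bound adaptor that restrains growth, had 90 counts in all and was detected in 3 large-clone and 4 small-clone libraries. Large clones ran from 0 through a median of 0.5 to 28 counts and small clones from 0 through a median of 2 to 34 counts. The level was 1.18 ± 2.17 CPM (large) against 3.10 ± 4.74 CPM (small), with a log2 fold change of -1.20 (SE 1.65) and an adjusted p of 0.855 in edgeR. The direction rested on mouse 4, without which the log2 fold change was 0.025, while without mouse 6 it was -3.25. It also depended on the libraries. In the 7 libraries below 5% chemoreceptor counts the large clones had 0 counts and Grb10 was at least 11.9-fold higher in small clones, against 3 counts over the group. Of the 54 small-clone counts there, 34 came from mouse 4, without which the bound was 5.79-fold. Both bounds take pooled reads as independent and leave out the spread between mice. In the 5 other libraries Grb10 had 35 counts in large and 1 in small clones.

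Of 35 genes listed for the wider insulin and IGF pathway, 33 had a mean level per kilobase above that of Igf2, 29 above that of Grb10 and 27 above that of Igf2r. In that list 33 had counts, 18 were detected in all 12 libraries and 24 were tested, of which 0 passed in edgeR in either direction, 17 had a higher and 7 a lower value in large clones, and 1 had an unadjusted p under 0.05. The median log2 fold change was 0.47, beside 0.06 over all 10848 genes tested. The gene with that p was Igfbp6, whose product binds IGF2 with preference over IGF1. It had 24.8 ± 32.8 CPM (large) against 2.50 ± 2.74 CPM (small), a log2 fold change of 3.30 (SE 1.4), with higher values for the large clones of 5 mice. Insr, the insulin receptor gene, had 64.9 ± 65.1 and 26.3 ± 30.3 CPM, with higher values for the large clones of 5 mice. Stc1, which encodes stanniocalcin, a secreted glycoprotein, had 27.3 ± 21.2 and 65.8 ± 38.0 CPM, with lower values for the large clones of all 6 mice. The adjusted p was 0.9998 for each of these 3 genes in edgeR. Igf1r had medians of 348 (large) and 334.5 counts (small) and a log2 fold change of -0.69 (SE 0.61).

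Cdkn1c (ENSMUSG00000037664, chromosome 7, 143012076 to 143014787), the cyclin-dependent kinase inhibitor p57, was carried by a single library. The large clones of mouse 3 had 119 counts, which is 83.2% of the total of 143, and no other library had more than 8. Apart from that library, large clones held 0 to 2 counts and small clones 0 to 8. The mean of 8.34 ± 19.95 CPM (large) against 1.07 ± 1.04 CPM (small) gave a log2 fold change of 2.79 (SE 1.74) with an adjusted p of 0.548 in edgeR. The medians went the other way, at 1.00 count in large and 2.50 counts in small clones, and the large clones of 4 mice had the lower value. Without mouse 3 the log2 fold change was -2.48, and with mouse as a block it was -1.30 (adjusted p of 1 in edgeR). It was 3.26 in the 7 libraries below 5% chemoreceptor counts, which include the one with 119 counts, and 0.07 in the 5 others, where Cdkn1c had 2 counts in large and 1 in small clones. The library with the 119 counts had the highest summed level of mesothelial markers, 382.6 CPM. The other large clones had 2.34 to 126.1 CPM and small clones 7.78 to 267.4 CPM. It also had the highest sum of epithelial markers, 8690 CPM, against 264.4 to 4963 CPM in the other large clones and 749 to 8460 CPM in small clones. Its secretory-cell markers summed to 4079 CPM, the most of the large clones, while small clones reached 8334 CPM. The part of cell makeup in this Cdkn1c value was not tested.

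Of 16 listed genes that hold or drive the entry into the cell cycle, 9 had a mean level per kilobase above that of Cdkn1c and 7 below it. Cdkn1a, which encodes the related inhibitor p21, stood at 397 ± 181.7 CPM per kilobase (SD, n = 12) and was detected in all 12 libraries, against 2.47 ± 7.36 CPM per kilobase for Cdkn1c. Of these 16 genes for inhibitors, G1 cyclins and their partners, 10 were tested, 6 with a higher and 4 with a lower value in large clones, and 0 passed in edgeR. Their median log2 fold change was 0.06, beside 0.06 over all genes tested. The 3 with the lowest p were Cdk6 (412.5 ± 329 CPM in the large and 205.2 ± 86.3 in the small), Ccnd2 (99.3 ± 107.2 and 51.3 ± 28.8 CPM) and Ccnd1 (24.1 ± 25.3 and 60.5 ± 59.0 CPM), with an unadjusted p of 0.121, 0.194 and 0.223 and an adjusted p of 0.9998 each in edgeR.

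Several genes of the cluster that holds Cdkn1c, listed here as maternally expressed, were read in these cells. The parental copy they were read from was not measured. Kcnq1, a potassium channel gene, had 2714 counts and Cd81, a tetraspanin gene, 1313 counts over the 12 libraries, and Nap1l4, a histone chaperone gene, had 1762 counts. Phlda2, a growth-restraining gene of the placenta, was at 0 in all 12 libraries, and Ascl2 had 3 counts in a single library. Kcnq1, Cd81 and Nap1l4 had log2 fold changes of -0.72, -0.78 and -0.61, each at an edgeR adjusted p of 0.9998, and these genes were named for their position after their values were seen.

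Dlk1 (ENSMUSG00000040856, chromosome 12, 109418749 to 109429262), the paternally expressed membrane protein of the Notch ligand family, was likewise carried by a single library. The large clones of mouse 2 had 161.5 counts, 74.1% of its total of 218, and it is the library with the most Mest. Large clones ran from 0 through a median of 4.75 to 161.5 counts and small clones from 0 through a median of 2.25 to 13 counts. The level was 7.27 ± 15.2 CPM (large) against 1.34 ± 1.69 CPM (small). The log2 fold change of 2.44 (SE 1.63) had an adjusted p of 0.61 in edgeR and became -0.54 without mouse 2. It was -3.14 in the 7 libraries below 5% chemoreceptor counts, where large clones held 1 count in all, and 2.98 in the 5 others. Values were higher in large clones in 2 mice, lower in 3, and 0 in both libraries of mouse 4. Of the 12 Dlk1 values, 4 were not whole. Its neighbours Rtl1, a retrotransposon-derived gene, and Dio3, which encodes a thyroid hormone deiodinase, had 31.5 and 0 counts in total.

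Plagl1 (ENSMUSG00000019817, chromosome 10, 12936248 to 13007438), the zinc-finger regulator that lends its name to the motif above, was detected in 9 libraries. Large clones ran from 0 through a median of 7 to 87 counts and small clones from 0 through a median of 9.5 to 42 counts. The large clones of mouse 5 held the 87 counts, 40.7% of its total, and in the other large clones it had 27 or fewer. The level was 5.47 ± 9.49 CPM (large) against 3.93 ± 3.82 CPM (small). The log2 fold change of 0.48 (SE 1.45) had an adjusted p of 0.952 in edgeR, and it was -1.38 when mouse 5 was left out and -1.05 with mouse as a block (adjusted p of 1 in edgeR). It was 1.16 in the 7 libraries below 5% chemoreceptor counts and -0.63 in the 5 others. The large clones had the lower value in 4 mice and the higher in 1, and both libraries of mouse 3 were at 0.

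**Figure D3:**
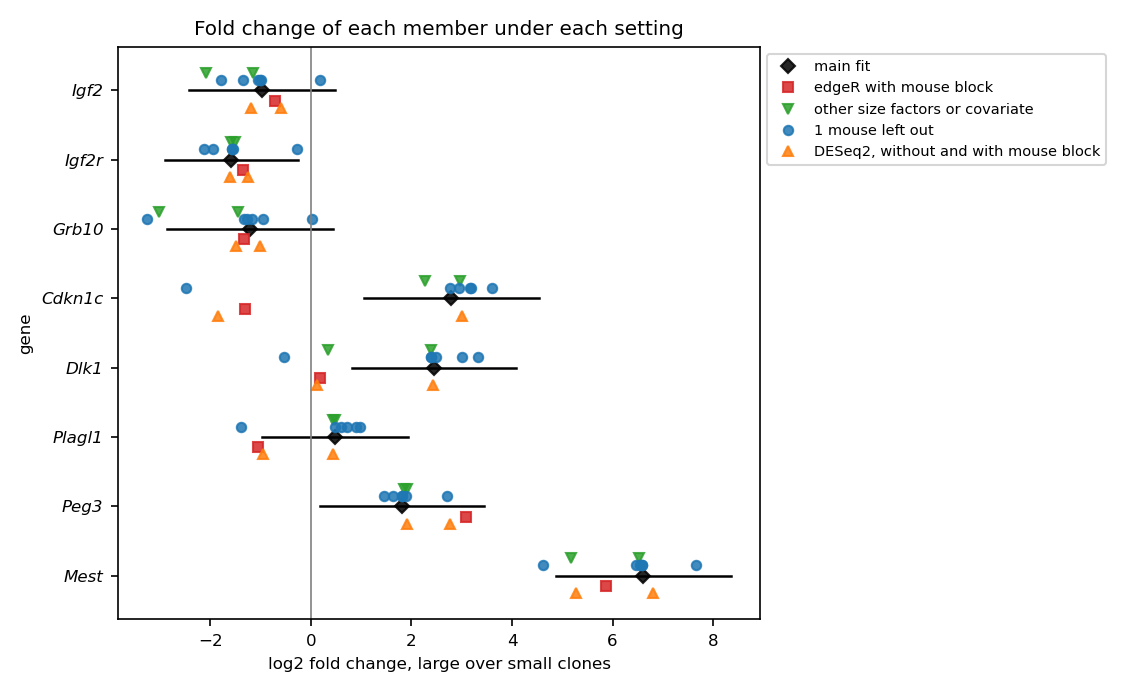
Log2 fold change of large over small clones for each of the 8 genes. Black diamonds with bars are the value and its SE in the edgeR fit used in the text (filtered for Igf2r, unfiltered for the others), and coloured marks are the fits with 1 mouse left out, mouse as a block, other size factors, the chemoreceptor share as a covariate, or DESeq2. Mest, Peg3 and Igf2r stay on the same side of 0 in every mark shown, while Cdkn1c, Dlk1, Plagl1, Grb10 and Igf2 have marks on both sides.

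Set beside other imprinted genes, the 8 growth regulators had 1 of 8 genes past the filter against 22 of 43, a difference that was not tested. Of the 43 other imprinted genes in the table, 40 had counts and 16 were detected in all 12 libraries. Among those listed as paternally expressed, 9 were tested, 7 with a higher and 2 with a lower value in large clones. Their median log2 fold change was 0.54. Among those listed as maternally expressed, 13 were tested, 4 with a higher and 9 with a lower value and a median of -0.50. These labels were given by gene, and the parental copy read in this tissue was not measured. Of all 10848 genes tested, 5775 had a higher and 5073 a lower value in large clones, with a median of 0.06. The difference between the lists was not tested. Fold changes of these genes were not split by chemoreceptor share. Usp29, listed as paternal, stood at 99.7 to 241.2 CPM in the 5 libraries with the higher share. It stood at 7.48 to 60.8 CPM in the 7 others. H13, listed as maternal, stood at 34.5 to 403.1 against 790.7 to 1638 CPM. For Ube3a, also maternal, the sets overlapped. These genes were picked after their values were seen. The part of the share in the medians was not tested. Of the 22 genes, 0 passed or had an unadjusted p under 0.05 in edgeR.

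The genes listed as paternal with the lowest p were Inpp5f, a phosphoinositide phosphatase gene, Nnat, which encodes neuronatin, and Sgce, which encodes a sarcoglycan. Inpp5f had 40.4 ± 20.3 CPM (large) against 18.6 ± 8.85 CPM (small), a log2 fold change of 1.12 (SE 0.62), with higher values for the large clones of 5 mice. Sgce had 82.5 ± 49.7 and 37.8 ± 22.6 CPM and was likewise higher in 5 mice. Nnat had 86.9 ± 175.3 and 31.4 ± 20.1 CPM, but lower values for the large clones of 5 mice, its mean being raised by 1000 counts in a single library. The genes listed as maternally expressed with the lowest p were Kcnk9, Asb4 and Trappc9. Kcnk9, a potassium channel gene, had higher values for the large clones of 6 mice, at 25.4 ± 27.6 and 9.31 ± 19.1 CPM. Asb4 (11.8 ± 11.5 and 30.3 ± 52.8 CPM) and Trappc9 (131.1 ± 45.6 and 95.3 ± 49.3 CPM) were higher in 3 and 5 of 6 mice. All 6 had an adjusted p of 0.9998 in edgeR.

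**Figure D4:**
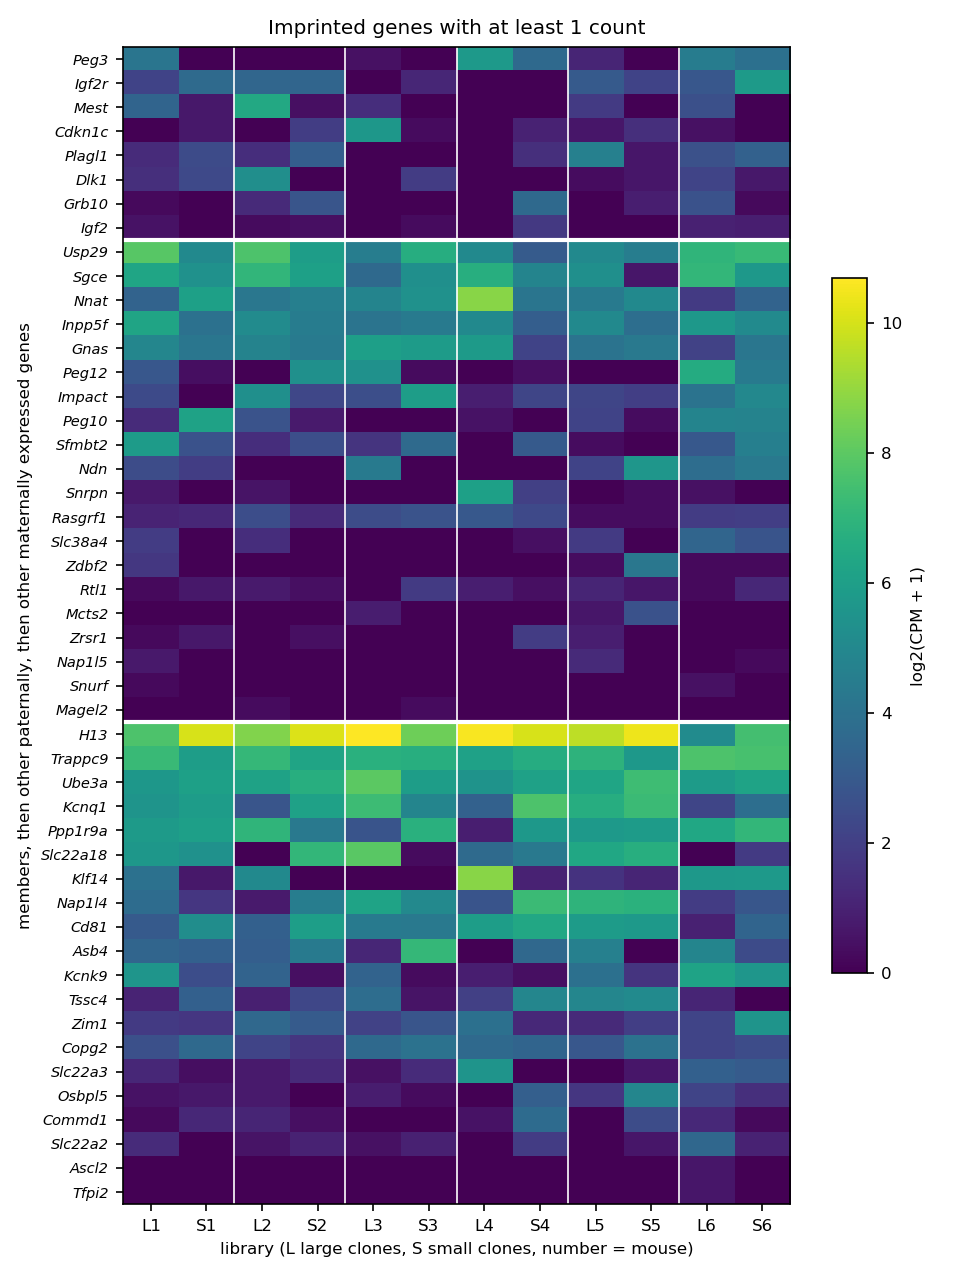
Level of the 8 growth regulators and of the 40 other imprinted genes with a count, as log2(CPM + 1) by colour, in the 12 libraries ordered by mouse. Rows run from high to low mean within the members, then within the other genes listed as paternally and as maternally expressed. The members' rows are dark in most libraries with isolated bright cells, while H13 and Trappc9 are bright in all 12.

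Genes that keep imprints through cell division, such as the methyltransferase gene Dnmt1, were listed too. All 15 had counts and 10 were tested. Of all genes tested, 5775 had a higher and 5073 a lower value in large clones, and of these 10, 3 and 7 did. The median log2 fold change of the 10 was -0.16, and 0 of them passed in edgeR. Those with the lowest p were Setdb1, a histone methyltransferase gene (11.8 ± 10.3 CPM in the large and 27.6 ± 23.3 in the small), Tet3 (9.53 ± 9.40 and 20.7 ± 19.1 CPM) and Tet1 (37.0 ± 25.6 and 22.4 ± 19 CPM), both genes for enzymes that oxidise methylated cytosine. Their unadjusted p was 0.204, 0.229 and 0.384, and the adjusted p was 0.9998 each in edgeR.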

How the data were processed

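The deposited values are expected counts, which are estimated read numbers of a gene and need not be whole (22.7% of entries were not). Per the labels' protocols, cells were cut out by laser, digested with proteinase K and amplified from poly(A) RNA, with Nextera XT libraries. RSEM, Bowtie2 and GRCm38 are named, without versions, per the submitters' processing notes. The table's coordinates are not those of GRCm38 (2.96% of 35491 shared genes had the same chromosome and start), so they are printed as the table gives them, and GENCODE M21 served for transcript lengths and RefSeq for promoters.

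Counts were rounded and tested in edgeR 4.0.16 (R 4.3.3; TMM, filterByExpr, quasi-likelihood, Benjamini-Hochberg over all genes, threshold 0.05). SE is the log2 fold change over the root of F. The filter kept 10848 of 25369 genes, with 97.2% of counts. Alternatives were a mouse block, RLE size factors, no filter, DESeq2 1.42.0, the chemoreceptor share as covariate or as a split at 5%, omission of each mouse and, chosen after seeing the data, exact permutation tests (smallest p 0.00216 for 6 against 6). Methods were tested on simulated data. Per the labels, each mouse gave both libraries that carry its number, and their deviations from the group means correlated at -0.0123, -0.0147, -0.362, 0.264, 0.49 and 0.62 for mice 1 to 6.

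The members and lists were chosen with earlier results of these data known. All members were named, and from each of 5 pathway lists (115 genes) the 3 tested genes with the lowest p. Genes most like a member were to be named where it had 10 or more counts in at least 10 libraries, which 0 members had. Counting limits and intervals take reads as independent and leave out the spread between mice. Amplified reads are not independent molecules, so these limits and intervals may be too narrow.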

Additional observations from a re-analysis of the deposited data

Results flagged for a closer look

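Each of the 8 genes was searched in each clone size for a library far from the other 5, by the gap to the nearest library as a share of the group's range, in CPM. Of 16 groups, 7 exceeded Dixon's critical value for 6 libraries, which chance passes in about 1 in 20 groups of normally distributed values. Whether these CPM values are normally distributed was not tested, and the share of such groups over all genes was not computed. The 7 of 16 is therefore not shown to be particular to the 8 genes.

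For Igf2 in small clones the share was 0.647, from 2.38 CPM (7 counts) in mouse 4 against 0.841 CPM in the next library. For Igf2r in small clones it was 0.785, from 55.9 CPM in mouse 6 against 12.02 CPM. In large clones it was 0.908 for Dlk1 (38.1 against 3.51 CPM, mouse 2), 0.989 for Cdkn1c (49.1 against 0.562 CPM, mouse 3), 0.741 for Grb10 (5.46 against 1.41 CPM, mouse 6), 0.785 for Plagl1 (24.4 against 5.26 CPM, mouse 5) and 0.888 for Mest (86.9 against 9.76 CPM, mouse 2). Peg3 had no such library in either group. The high libraries came from 5 different mice, and the large clones of mouse 2 stood out for both Dlk1 and Mest.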

How the results depend on the processing

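Over all filtered genes, edgeR called 0 at the 0.05 threshold under each alternative run, with 0 to 0 without 1 mouse each, and 5 in DESeq2 or 42 in DESeq2 with the replicate block. Of the members, 0 passed among the filtered genes in any of them. Of 121 values of a member under another setting, 14 had the opposite sign and 2 passed the threshold, both for Mest in DESeq2 (6.80 without and 5.28 with the block). With the replicate block in edgeR, Cdkn1c was -1.30 and Plagl1 -1.05, and in DESeq2 with the block they were -1.84 and -0.95. The block in edgeR changed no call. In the exact tests of log2(CPM + 1) the difference of Plagl1 was -0.16. By chemoreceptor share, Dlk1 was -3.14 in the 7 libraries with less, and Grb10 was 4.15 and Plagl1 -0.63 in the 5 with more. Without 1 mouse each, the ranges were -1.78 to 0.18 for Igf2, -0.54 to 3.33 for Dlk1, -2.48 to 3.6 for Cdkn1c, -3.25 to 0.025 for Grb10 and -1.38 to 0.97 for Plagl1. Mest (4.62 to 7.65), Peg3 (1.46 to 2.72) and Igf2r (-2.12 to -0.28) kept their direction there and under every other alternative run. Beyond the settings' own construction, the cause of these changes was not tested. Of the 8 genes, 7 did not pass the filter on low counts, with 10 or more counts in 0 to 5 libraries against 8 for Igf2r.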
